A study of Mus musculus with 16 samples.

Results

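The accessible regions of mouse chromosome 6 that are centred outside promoters numbered 5623, of 81132 regions in the deposited list and of 6597 on chromosome 6. They were selected on their chromosome and on position: a member is a region on chromosome 6 whose centre lies in no promoter, where a promoter runs from 1000 bp upstream to 100 bp downstream of any transcription start site (TSS) of the GENCODE M21 annotation on mm10. The chromosome itself was chosen by its density of regions, which was the highest of the 19 autosomes, so densities are given below as a description and no test was run on them. The list merges the peaks of 12 ATAC-seq libraries from 4 sorted populations, with 3 replicates per population. The populations are named SHOH, SHOL, SLOH and SLOL, where SH and SL stand for high and low SOX2 and OH and OL for high and low OCT4. All were sorted in G1 phase from SBROS, a mouse embryonic stem (ES) cell line of CGR8 background that derives from a reporter line for Sox1 and Brachyury. Both of its Sox2 alleles carry a SNAP-tag and a single Oct4 allele carries a HALO-tag, so that OCT4-HALO reports part of the OCT4 protein. The cells grew in medium with serum, LIF, CHIR99021 and PD184352, and were stained with HaloTag TMR, SNAP-SiR647 and Hoechst before sorting. The list holds the position of each region and no value per library, so that the depth of the libraries cannot be read from it, a region may come from any number of them, and no error between replicates can be given. The intervals below are 95% Wilson confidence intervals of shares and cover counting error only.

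ATAC-seq marks DNA that the Tn5 transposase can reach, which is mostly the nucleosome-poor sequence of promoters, enhancers and insulators. Enhancers lie in introns or between genes and bind the transcription factors of the cell, in ES cells OCT4, SOX2, NANOG, ESRRB and KLF proteins among others, while CTCF binds insulators and the anchors of chromatin loops. Mouse chromosome 6 carries the pluripotency genes Nanog, Dppa3 and Gdf3, the Hoxa genes, many long genes of neurons, and clusters of receptor and immune genes that ES cells hardly use.

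The sequences below show what such regions look like at a pluripotency regulator (Nanog), at its neighbour Dppa3, at the gene with the most members (Magi1), at a gene of neural development (Atoh1) and in the 1 Mb bin with the most members (where Plekha5 is the closest gene). For each, the member with the most motif matches in its central 200 bp was taken, the widest where members tied as at Atoh1, and this window of the plus strand of GRCm38, the assembly that mm10 denotes, is printed with matched letters in capitals. The motifs were the octamer ATGCAAAT of OCT proteins, the SOX motif CCATTGT or CCTTTGT, the ESRRB motif TCAAGGTCA, the KLF motif GGGNGTGG, the AP-1 motif TGANTCA, where N is any base, and the CTCF core, each on both strands, and matches of different motifs could overlap. Over all 81132 regions the central 200 bp held the octamer in 1.54%, the SOX motif in 8.99%, the ESRRB motif in 1.34%, the KLF motif in 13.0%, the AP-1 motif in 5.79% and the CTCF core in 4.49%. The Nanog window, chr6:122720223-122720422, lies in intergenic sequence 12755 bp from the closest Nanog TSS and has 1 KLF match. The Dppa3 window, chr6:122660596-122660795, is intergenic, slightly wider than its region of 182 bp, and has a CTCF core and an octamer. The Magi1 window, chr6:94093302-94093501, lies in an intron and has 2 KLF matches. The Atoh1 window, chr6:64799516-64799715, is intergenic and has 1 SOX match. The Plekha5 window, chr6:140535575-140535774, lies in an intron and has 1 ESRRB and 2 KLF matches.
Nanog member: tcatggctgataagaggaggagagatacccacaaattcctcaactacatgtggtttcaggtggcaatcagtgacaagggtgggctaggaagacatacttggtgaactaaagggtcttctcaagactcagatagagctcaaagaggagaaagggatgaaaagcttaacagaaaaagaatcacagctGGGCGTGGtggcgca
Dppa3 member: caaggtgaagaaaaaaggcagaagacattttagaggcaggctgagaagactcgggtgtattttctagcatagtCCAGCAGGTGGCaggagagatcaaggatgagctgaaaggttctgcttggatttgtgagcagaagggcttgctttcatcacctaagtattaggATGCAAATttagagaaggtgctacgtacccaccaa
Magi1 member: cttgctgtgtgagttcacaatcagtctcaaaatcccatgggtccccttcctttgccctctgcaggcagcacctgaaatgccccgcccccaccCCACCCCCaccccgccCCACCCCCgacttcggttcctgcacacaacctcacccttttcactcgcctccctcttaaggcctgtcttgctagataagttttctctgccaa
Atoh1 member: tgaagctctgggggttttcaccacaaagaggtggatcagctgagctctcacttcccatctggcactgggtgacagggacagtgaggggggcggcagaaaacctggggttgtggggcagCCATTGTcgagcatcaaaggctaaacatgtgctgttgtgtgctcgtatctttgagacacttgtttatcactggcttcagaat
Plekha5 member: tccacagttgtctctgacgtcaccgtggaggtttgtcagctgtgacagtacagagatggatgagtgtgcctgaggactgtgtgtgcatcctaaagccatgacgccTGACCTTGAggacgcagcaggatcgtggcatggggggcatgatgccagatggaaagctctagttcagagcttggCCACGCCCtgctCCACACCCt

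The label of the cells was compared with marker genes. A region was centred in a promoter of 5 of the 8 ES cell markers (Pou5f1, Sox2, Zfp42, Esrrb and Klf4), and each of the 8 was closest to 1 or more regions outside promoters, 41 in total. Both counts say little. On the autosomes other than chromosome 6, a region overlapped a promoter of a median of 69.3% of the protein-coding genes, where overlap and not the centre was counted. Of all protein-coding genes of these autosomes, 56.8% were closest to a region outside promoters. None of the 3 liver markers (Alb, Apoa1 and Ttr) or of the 2 muscle markers (Myod1 and Actc1) had a promoter region, and outside promoters the liver markers were closest to 2 regions and the muscle markers to 1. All 4 fibroblast markers (Col1a1, Col1a2, Thy1 and Pdgfra) had one, and together they were closest to 4 regions outside promoters. Accessible promoters thus included those of fibroblast genes, and whether these genes were expressed is not given by the list.

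Chromosome 6 stood apart in regions outside promoters and not in promoter regions. It held 38.4 members per Mb of sequence without gaps, while the other 18 autosomes ranged from 20.5 (chromosome 14) to 29.4 (chromosome 11) with a median of 24.8. The ratio to this median was 1.55. Promoter regions numbered 974, or 6.66 per Mb, against a median of 6.82 on the other autosomes, which placed chromosome 6 at rank 12 of 19. A region overlapped a promoter of 745 of its 1112 protein-coding genes (67.0%), against a median of 69.3% and a range of 55.8 to 81.0% on the other autosomes. Members therefore made up 85.2% of the regions on chromosome 6, the highest share among the autosomes, whose other values ran from 72.9% (chromosome 19) to 82.3% (chromosome 1). The X chromosome had 8.21 regions outside promoters per Mb. The list does not give the copy number of a chromosome, and its part in these densities was not tested.

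**Figure D1:**
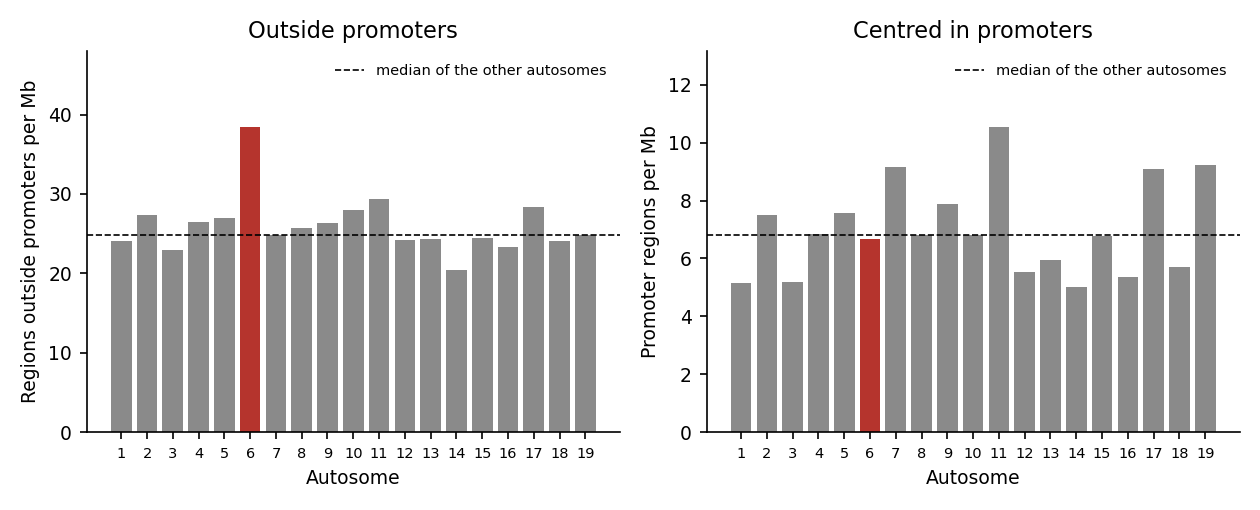
Accessible regions per Mb of sequence without gaps on each autosome, outside promoters (left) and centred in promoters (right), with chromosome 6 in red and a dashed line at the median of the other 18 autosomes. Chromosome 6 had 38.4 members per Mb against a median of 24.8, and 6.66 promoter regions per Mb against a median of 6.82.

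The limit that separates members from promoter regions cut through a continuum. Within 100 bp outside the limit lay the centres of 123 members (2.19%), with a median width of 698 bp, and within 100 bp inside it those of 179 promoter regions, with a median width of 680 bp. A total of 231 members (4.11%) overlapped a promoter although their centre lay outside. These members at the limit were much wider than the rest and resembled the 974 promoter regions, whose median width was 652 bp.

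Along the chromosome the members were spread widely. Of 146 bins of 1 Mb with at least 90% sequence, none was empty, and the median bin held 35.5 members (range 4 to 104) against 22 in the 2230 bins of the other autosomes. The number in a bin exceeded 22 in 110 bins (75.3%). The same share lay between 35.5% (chromosome 14) and 64.4% (chromosome 11) on the other autosomes. Sparse bins were the ones most lacking. Only 1 bin of chromosome 6 fell below the 10th percentile of the bins elsewhere (7 members), while 40 bins (27.4%) exceeded their 90th percentile (47 members). Relative to the bins of the other autosomes the 5th percentile was 2.45 times as high, the median 1.61 times and the 95th percentile 1.34 times. Chromosome 6 supplied 6.14% of all autosomal bins but 23 of the 100 bins with the most regions outside promoters.

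**Figure D2:**
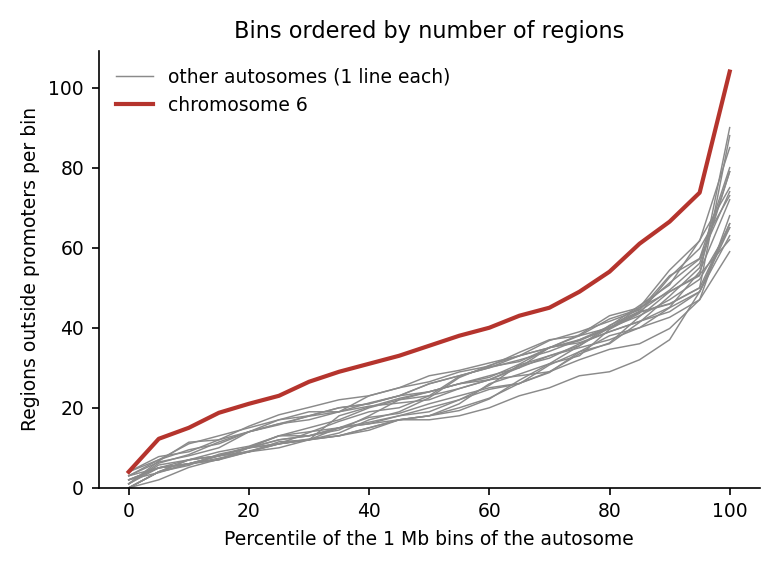
Regions outside promoters in each 1 Mb bin, with the bins of each autosome ordered by number and shown by percentile, chromosome 6 in red and each other autosome as a grey line. The median bin held 35.5 members on chromosome 6 and between 17 and 28 regions on the other autosomes.

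No small set of bins carried the density. The 10 fullest bins held 841 members (15.0%), and 45 bins (30.8%) were needed to reach 50% of them. With the fullest 10% of bins left out of every autosome, the mean per bin was 33.6 on chromosome 6, against a median of 21.7 and a maximum of 25.8 elsewhere, a ratio of 1.55.

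The distal end was the fullest stretch. The last 30 bins, from position 119000001 on, held 58.2 members per bin and the 116 bins before them 33.1. Other autosomes were also fuller at this end, with a median of 35.0 in their last 30 bins and 21.5 before them. Both parts of chromosome 6 ranked first of 19, at 1.66 and 1.54 times the respective median, while the rise from one part to the other, 1.76 times, ranked 7 of 19. In stretches of 10 Mb, all 3 from 120 Mb to the end exceeded every one of the 204 stretches of the other autosomes, with 55.2, 56.9 and 65.1 members per bin against a maximum of 53.3. The lowest stretch, from 10 to 20 Mb, had 23.8 members per bin and matched the median of 23.9 elsewhere. The distal part was richer in genes, with 11.1 protein-coding genes per bin against 6.66. Together with 33 members in an incomplete bin at the end, it held 1779 members. They had nearly the same median width (325 bp against 330 bp) and the same median GC content (49%) as the 3844 others, but a shorter median distance to the closest TSS (9004 bp against 13128 bp). Of the distal members 45.3% (42.9 to 47.6%) were intergenic, against 50.2% (48.7 to 51.8%) of the others, and 19.5% (17.7 to 21.4%) of them were mostly repeat against 22.4% (21.1 to 23.7%).

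The 5 fullest bins did not adjoin each other, but those starting at 136000001, 140000001 and 145000001 all lay in the distal stretch. The bin chr6:140000001-141000000 held 104 members and 5 protein-coding genes, and Plekha5, which encodes a pleckstrin homology domain protein, was the closest gene of 25 of them. The next bin, chr6:100000001-101000000, had 95 members, 72 of them intergenic, and 26 were closest to Rybp, a subunit of Polycomb repressive complexes. In chr6:136000001-137000000 there were 88 members, and Atf7ip, Gm4714 and Grin2b each took 7 of the members of that bin. In chr6:145000001-146000000, with 87 members, Bcat1 and Lrmp each took 12. In chr6:108000001-109000000, with 85 members, Itpr1, a calcium channel of the endoplasmic reticulum, took 22. These 5 bins held between 4 and 16 protein-coding genes.

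The emptiest bins lay in long genes, among receptor genes or where no protein-coding gene lies. The bin chr6:45000001-46000000, most of it in Cntnap2, had 4 members, and chr6:26000001-27000000, without a protein-coding gene, had 7. Next came chr6:57000001-58000000, with 24 protein-coding genes, most of them vomeronasal receptors, and 8 members. The longest stretch without a member, 741739 bp at chr6:45324117-46065855, also lay in Cntnap2, a cell adhesion gene of neurons that is the longest gene of the chromosome. On the other autosomes the longest such stretch ran from 771967 bp (chromosome 10) to 2390948 bp (chromosome 7). The stretch of 452 kb at chr6:89835993-90288408 contained 14 vomeronasal receptor genes and 1 promoter region.

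The bins are described next by their gene number and base composition, and whether either bears on the density was not tested. Chromosome 6 had 7.60 protein-coding genes per Mb (rank 12 of 19), a GC content of 41.4% (rank 14) and 33.8% soft-masked repeats (rank 7). In bins without a protein-coding gene, chromosome 6 averaged 18.6 members against 9.59 elsewhere, a ratio of 1.94, and 15 of its 16 such bins exceeded the median elsewhere. In bins of 4 to 7 genes the averages were 45.5 and 27.6. In bins of 16 or more genes they were 47.5 and 36.3, a ratio of 1.31, and 2 autosomes had a higher average. The ratio was thus largest where genes were fewest. By GC content, the averages were 22.4 and 10.9 in the lowest quartile (ratio 2.05) and 52.9 and 40.1 in the highest (ratio 1.32). The second quartile had a ratio of 1.58 and the third 1.77, so the ratio did not fall steadily with GC content. In every quartile of GC content and in every class of gene number below 16, the average of chromosome 6 was the highest of the autosomes with at least 5 such bins.

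**Figure D3:**
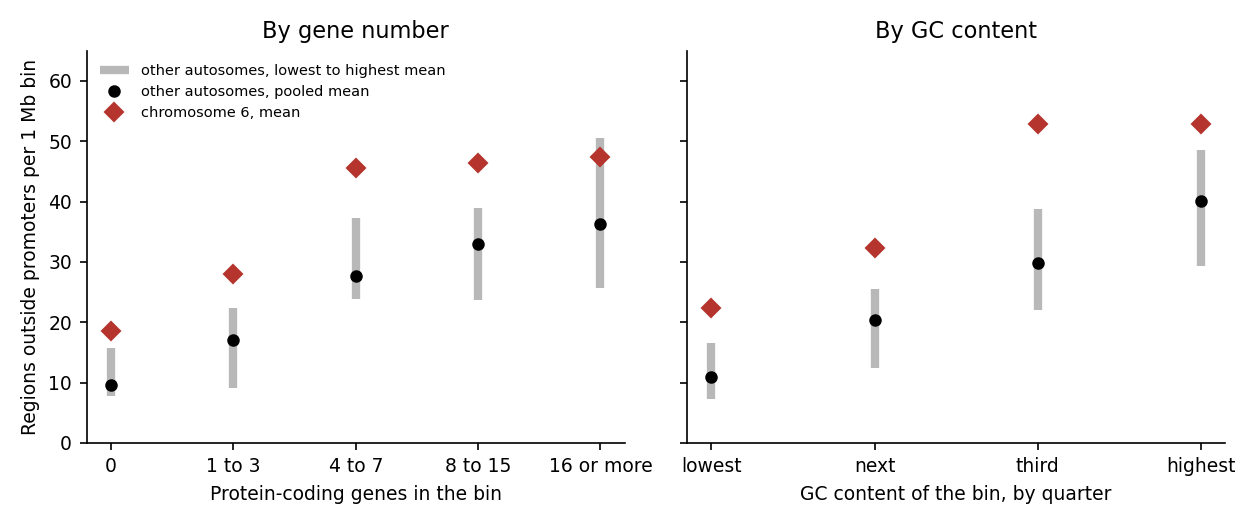
Mean number of regions outside promoters per 1 Mb bin, by the number of protein-coding genes in the bin (left) and by its GC content in quartiles of the bins of the other autosomes (right). Red diamonds are chromosome 6, black points the pooled bins of the other autosomes, and grey bars run from the lowest to the highest mean of any other autosome with at least 5 such bins; chromosome 6 lies above the bar in all classes but that of 16 or more genes.

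Each bin was then set against bins of the same class of gene number and GC quartile on the other autosomes. Chromosome 6 had 5590 members in the 146 bins where the averages of such bins sum to 3546, a ratio of 1.58. The same ratio, computed for each other autosome in turn, ran from 0.814 (chromosome 14) to 1.15 (chromosome 10). Because the density chose chromosome 6, a high ratio was largely set in advance and nothing is read from it. The autosomes most like chromosome 6 in protein-coding genes per Mb were chromosome 14 (7.43), chromosome 15 (7.80) and chromosome 10 (8.04). They had 20.5, 24.5 and 28.0 regions outside promoters per Mb, and since chromosome 6 was chosen by its density nothing is read from the difference.

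Members differed little from their counterparts in width. The median of 329 bp (lower and upper quartile 205 and 503 bp) ranked 3 among the 19 autosomes, whose other medians ran from 307 to 330 bp. The density was higher at every width. Members under 200 bp numbered 1318 (23.4%, interval 22.4 to 24.6%), or 9.01 per Mb against a median of 5.61 on the other autosomes, a ratio of 1.61. Those of at least 1000 bp numbered 156 (2.77%, interval 2.38 to 3.24%), or 1.07 per Mb, a ratio of 1.71, and the lowest ratio of any width class was 1.39, for 200 to 300 bp.

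Some of the widest members lay next to a TSS or in repeats. The widest, 2819 bp at chr6:3138679-3141497, and the next, 2775 bp at chr6:3132556-3135330, lay near the first sequenced base of the chromosome, with the pseudogene Vmn1r-ps7 as the closest gene, and 75% and 81% of their central 200 bp were soft-masked repeats. The member of 2402 bp at chr6:85511429-85513830 was centred in an exon of Egr4, a zinc finger transcription factor, with a GC content of 71.5% in its central 200 bp. A member of 2265 bp was centred in an intron of Gdf3, a TGF-beta ligand of pluripotent cells, and one of 2005 bp in an exon of Mat2a, which makes S-adenosylmethionine. The last 3 all reached into a promoter of their gene.

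More members were intergenic and fewer exonic than on most autosomes. Introns held 2410 members (42.9%, interval 41.6 to 44.2%), intergenic sequence 2736 (48.7%, 47.4 to 50.0%) and exons 477 (8.48%, 7.78 to 9.24%). The intergenic share ranked 3 of 19 and the exonic share was the lowest, although the intergenic share of sequence outside promoters, 52.2%, was close to the median of 52.3% elsewhere. Per Mb of intergenic sequence there were 37.2 members against a median of 21.4 on the other autosomes, a ratio of 1.74. Per Mb of intron there were 39.3 against 26.6 (ratio 1.48), and per Mb of exon 77.2 against 63.8 (ratio 1.21, rank 6). The density therefore differed most outside genes and least in exons. The share in introns depends on the annotation and was 38.1% with transcripts of protein-coding genes alone.

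The spacing of members follows in part from the density that chose the chromosome, and is given as a description. The median gap to the next member was 11919 bp, the shortest of the autosomes, whose other medians ran from 13836 to 18213 bp. The median distance to the closest TSS was 11781 bp, the longest, against a range of 6989 to 11670 bp. At 5 to 50 kb from a TSS lay 3384 members (60.2%, interval 58.9 to 61.5%), 1.62 times the median density elsewhere, and within 5 kb 1537 members, 1.32 times the median density. The ratio was 1.65 for the 702 members more than 50 kb from a TSS. Runs of at least 10 members with centres at most 12.5 kb apart held 469 members (8.34%) in 36 runs, against a median share of 2.54% and a maximum of 5.93% (chromosome 18). The longest run had 27 members in 130 kb at chr6:100333792-100463839, upstream of Rybp.

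In sequence, members were poorer in GC and richer in repeats. The median GC content of the central 200 bp was 49%, the lowest of the autosomes, whose other medians ran from 49.5 to 52.5%, and 15.8% of the members had no CpG, the highest share. In windows 5 kb away the median GC content was 43%, against 44.5% on the other autosomes. More than 50% of the central 200 bp was soft-masked repeat in 1207 members (21.5%, interval 20.4 to 22.6%), the highest share, against a range of 10.8 to 20.4%. Such members stood at 1.93 times the median density elsewhere and the remaining 4416 at 1.42 times. The repeat share was nevertheless lower than in the windows 5 kb away, 26.7% of which were mostly repeat.

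At the level of genes, the members had 1777 closest genes, 56.8% of the 3130 annotated genes of the chromosome, and 51.1% of the members had a protein-coding closest gene. Of the 1112 protein-coding genes, 64.9% had a closest member and 60 (5.40%) had 10 or more. On the other autosomes these shares were 56.8% and 1.73% over all 19695 genes. The share with a closest member ranked 4 of 19, below a maximum of 69.8% (chromosome 18), and the highest share with at least 10 on any other autosome was 2.80% (chromosome 15). The 10 genes with the most members together took 238 (4.23%). These counts per gene follow in part from the density that chose the chromosome, and are given as a description.

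The genes with the most members differed in length and in where their members lay. Magi1, a scaffold protein of cell junctions of 608 kb, had 34 closest members, 33 of them in introns, and 55 when protein-coding genes alone were considered. Rybp had 26, of which 23 were intergenic on either side of the gene. Cntnap2 and Plekha5 had 25 each and Sox5, a SOX family transcription factor of neural and cartilage development, had 24. Itpr1 had 22, and Frmd4b and the calcium channel gene Itpr2 had 21 each. Bcat1, an enzyme of branched-chain amino acid metabolism, and Cntn4, an adhesion protein of neurons, had 20 each, as did Mical3, so that the last place among the 10 was tied. Members that lie in a gene body, whichever gene has the closest TSS, were counted separately and numbered 45 in Magi1. Per 100 kb of gene body the range of this count was wide, from 1.65 members in Cntnap2 and 1.96 in Cntn4 to 7.40 in Magi1 and 13.3 in Plekha5.

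Long neuronal and synaptic genes had the most members of the lists. Of the 22 genes, 21 had a closest member, the median was 8.5 and 10 genes had at least 10. Over all protein-coding genes of chromosome 6 the median was 1, 64.9% had a closest member and 5.40% had at least 10. Per 100 kb of gene body the genes of the list ranged from 0.540 in Cntn6, a contactin of neurons, to 8.58 in Itpr1. Whether length accounts for the numbers of the list was not tested. The 67 protein-coding genes of at least 200 kb had a median of 2.90 members per 100 kb, against a median of 1.80 over the other autosomes and a maximum of 2.33 (chromosome 8). Of the list, Itpr1, Magi1 (7.40) and Srgap3 (6.11) alone exceeded 2.90, and all its other genes lay below. Per length, most of these genes thus had fewer members than the typical long gene of the chromosome.

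Pluripotency and chromatin genes each had at least 1 closest member. The 12 genes had a median of 3, against 64.9% with a closest member and a median of 1 over all protein-coding genes of the chromosome. They had 67 members in total, of which Rybp took 26 and Slc2a3, a glucose transporter gene next to Nanog, 11. Tead4, a transcription factor of the trophectoderm, had 8 closest members, while 13 members lay in its body, or 17.0 per 100 kb. Ezh2, the Polycomb methyltransferase, had 4 closest members. The TET dioxygenase gene Tet3 and the Polycomb gene Phc1 had 2 each and the demethylase gene Kdm5a had 1. Numbers by closest TSS hide the density of this neighbourhood, since within 100 kb of its gene start Nanog had 28 members, Dppa3 24 and Gdf3 23. These stretches overlap, so that the genes share many of these members. Genes elsewhere on the chromosome had similar numbers within 100 kb, with 30 at Cd9, 28 at Bcat1 and 26 at Rybp.

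Developmental transcription factors were uneven. Of 37 genes, 24 (64.9%) had a closest member and the median was 1, both the same as over all protein-coding genes of the chromosome, while 6 (16.2%) had at least 10, against 5.40%. These 6 were Sox5 (24), Foxp1 (16), Etv6 (14), Bhlhe40 (11), Atoh1 (10) and Foxp2 (10). Foxp1 and Foxp2 encode forkhead factors, Etv6 an ETS repressor, and Bhlhe40 a basic helix-loop-helix repressor with 24 members within 100 kb. Mitf, the regulator of pigment cells, had 8 and Gata2, a regulator of blood progenitors, had 3. Among the 13 genes with 0 closest members were Hoxa2, Hoxa4, Hoxa5, Hoxa6, Hoxa7, Hoxa11 and Hoxa13.

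Around Atoh1, a factor of cerebellar and hair cell precursors with a gene body of 2.12 kb, the 10 members lay on both sides. Of the 2 members that overlapped the promoter, the wider, 1530 bp at chr6:64728551-64730080, had its centre in an exon. The others were centred up to 28.6 kb upstream and 70.5 kb downstream of the TSS, where the member of 435 bp with the SOX match printed above was the farthest.

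Signalling and cell cycle genes had a median of 3 closest members over 23 genes, and 21 had at least 1, while over all protein-coding genes of chromosome 6 the median was 1 and 64.9% had a closest member. Cd9, a tetraspanin of the ES cell surface, had 13, and the Wnt coreceptor gene Lrp6 and the Wnt ligand gene Wnt5b had 10 each. The semaphorin receptor gene Plxna1 had 8 and the related gene Plxnd1 had 7. Wnt16 and Vhl had 0.

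Gene clusters are short spans, and their densities rest on few members in many cases. The span from Gdf3 to Slc2a3 with Nanog and Dppa3, chr6:122605403-122801640, held 28 members in 196 kb, or 143 per Mb. This is 3.71 times the density of the chromosome, and the 1 Mb to each side had 30.5 per Mb. The Akr1b genes of aldo-keto reductases had 74.6 members per Mb. The span of the natural killer receptor genes with the prefix Klr, 2638 kb, held 145 members, while 30 members were closest to a gene of this cluster. The span had 1.43 times the density of the chromosome but less than its surroundings, where the 1 Mb to each side together held 120. The Hoxa genes had 6 members in 105 kb, 1.48 times that density, against 9 promoter regions in the same span. The Gimap genes of immune GTPases had 48.5 per Mb, against 43.1 to their sides. The Slco transporter genes had 38.8, against 86.0 to their sides.

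The vomeronasal receptor clusters were among the sparsest. Only uniquely mapped reads were kept, and whether this lowered the counts in such clusters of related genes was not tested. The 3 clusters of vomeronasal receptors (Vmn1r) had 12.9, 7.74 and 1.77 members per Mb, with 1 member in the 564 kb of the last of them, while the sequence to their sides had 36.5, 46.0 and 49.0. The T cell receptor beta segments (Trbv) had 12.0 per Mb and the Reg genes of secreted lectins 10.2. The immunoglobulin kappa segments (Igkv), 160 genes over 3149 kb, had 84 members, all intergenic, or 26.7 per Mb against 61.5 to their sides. The bitter taste receptors (Tas2r) had 34.0 and 25.2 per Mb in their 2 clusters, against 26.5 and 64.5 to their sides. The C-type lectin genes (Clec) had 29.9 in the cluster beside Nanog and 52.4 in the cluster within the Klr genes.

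**Figure D4:**
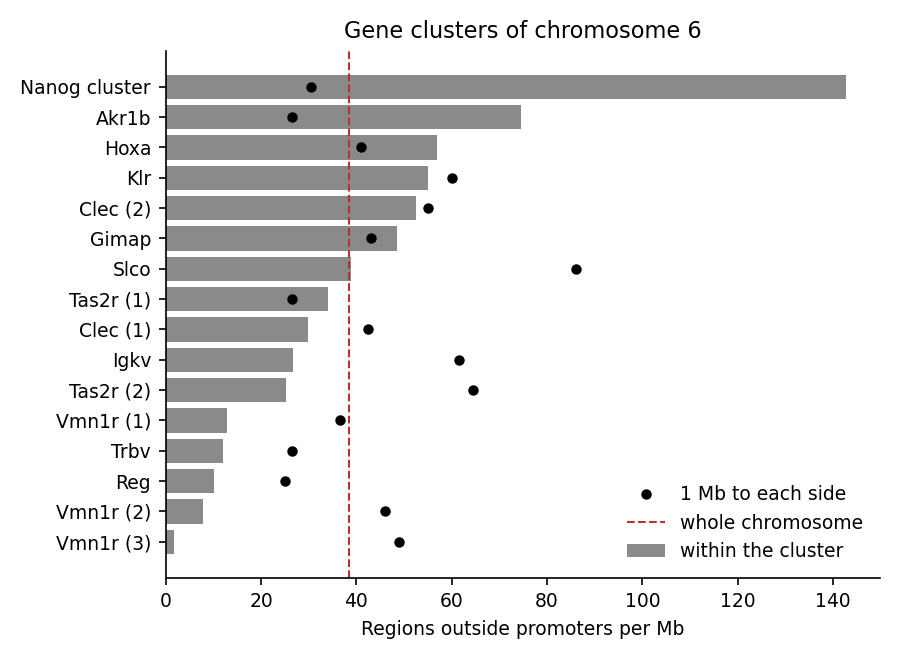
Members per Mb within gene clusters of chromosome 6 (bars), in the 1 Mb to each side of them (black points) and on the whole chromosome (dashed line). The Nanog cluster had 143 members per Mb and the third Vmn1r cluster 1.77, each beside sequence of 30.5 and 49.0 per Mb.

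Within the Nanog cluster, promoter regions were found at Slc2a3 alone. Of its 31 regions, 28 were members, while members made up 85.2% of all regions on chromosome 6, and all 3 promoter regions were at Slc2a3. No region was centred in a promoter of Nanog, Dppa3 or Gdf3, although the wide Gdf3 member, chr6:122607720-122609984, reached into one. The authors discarded peaks that overlapped those of a ChIP-seq input, and its part in this was not tested. The members closest to Nanog lay in an intron (chr6:122711786-122712008), in an exon (chr6:122712938-122713545, 608 bp) and downstream of the gene (chr6:122719992-122720654). A member of 1042 bp at chr6:122702193-122703234 was centred 4775 bp upstream of the Nanog gene start, with a closer TSS in Gm10224. Of the 11 members closest to Slc2a3, 10 lay in introns.

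Motif letters were more common in members than in windows of the same length 5 kb away for 4 of the 6 motifs. The CTCF core was present in 262 of the 5576 members with such a window (4.70%) and in 4 windows (0.0717%). The KLF motif was present in 10.9% and 5.33%, a ratio of 2.04, and the ESRRB motif in 1.60% and 0.646%, a ratio of 2.47. The SOX motif was present in 9.88% of members and 7.21% of windows, a ratio of 1.37. The AP-1 motif (6.33% and 6.24%) and the octamer (1.83% and 2.04%) had overlapping intervals in members and windows. The 4 higher shares are traits of regions outside promoters in general, since the other autosomes had similar ratios. There the ratio was 62.1 for the CTCF core, where chromosome 6 had 65.5, 2.23 for the KLF motif, 2.76 for the ESRRB motif and 1.36 for the SOX motif. For the AP-1 motif it was 1.01 on chromosome 6 and 1.14 on the other autosomes, and for the octamer 0.895 and 0.970. The windows were poorer in GC than the members, with a median of 43% against 49%. Whether base composition accounts for the ratios of members to windows was not tested.

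Over all 5623 members, the SOX motif occurred in 556 (9.89%, interval 9.13 to 10.7%) and the octamer in 102 (1.81%, interval 1.50 to 2.20%). With the whole region searched in place of the central 200 bp the shares were 17.3% and 3.20%. The SOX share ranked 10 of 19 autosomes and the octamer share 6, so neither stood at an end of the order. The KLF motif, in 10.8% (10.0 to 11.7%), ranked 18 of 19, and any of the 6 motifs, in 31.3%, ranked last. The shares differed with base composition, and the KLF motif was found in 4.76% of the members under 45% GC and in 14.5% of those of at least 55%. The octamer ran the other way, with 2.72% and 0.324%, as did the SOX motif, with 12.2% and 8.09%. Whether base composition accounts for the ranks was not tested. Both the octamer and the SOX motif were present in 14 members (0.249%), against 0.214% of the regions outside promoters of the other autosomes. A SOX motif followed by an octamer, with at most 1 base between them, was found in 0 members, in 0 of the windows 5 kb away and in 0 of the regions outside promoters of the other autosomes, so this search by exact letters tells nothing about the members.

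**Figure D5:**
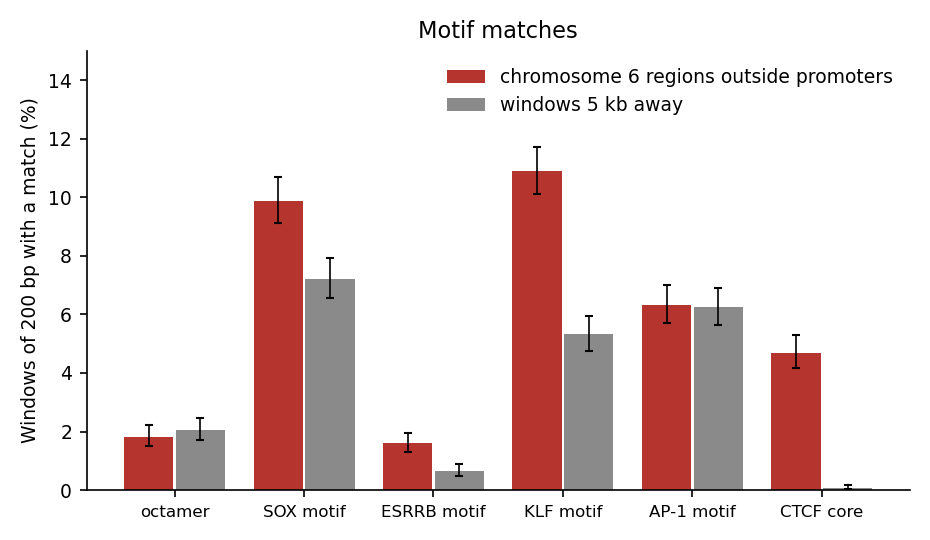
Share of windows of 200 bp with a motif match, in the centres of 5576 chromosome 6 members (red) and in windows 5 kb away without a region (grey), with 95% Wilson intervals as error bars. The CTCF core was present in 4.70% of members and 0.0717% of windows, and the octamer in 1.83% and 2.04%.

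Some motif shares differed with the kind of member. The CTCF core was present in 3.11% of the members under 200 bp and in 0% of those over 1000 bp, and the median width of members with it was 359 bp against 325 bp without it. The SOX motif was present in 10.9% of intergenic members, 9.29% of intronic and 7.13% of exonic ones. In promoter regions of chromosome 6 the central 200 bp held the CTCF core in 1.03% and the SOX motif in 6.57%, so both were more common outside promoters.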

How the data were processed

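ATAC-seq peaks were measured in the 12 libraries named above. Reads were aligned by the authors with STAR (2.5.3a) on mm10, uniquely mapped ones were kept without duplicates (Picard), and the authors called peaks per library with MACS2 (2.1.1.20160309), merged them with BEDOPS and removed those overlapping peaks of a ChIP-seq input. The deposited list has 3 columns, chromosome, start counted from 0 and end. Pooling hides how many libraries gave a region, and no comparison of the populations was made. The 4 ChIP-seq samples were not analysed here.

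A region took the class of its centre, in the order promoter, exon, intron, intergenic, and was given to the gene of its nearest TSS. Bins of 1 Mb needed 90% sequence. Motifs were letter matches in the central 200 bp and in the nearest usable window 5 kb away. Python (3.11.15), numpy (2.4.6), pandas (2.3.3), scipy (1.17.1) and matplotlib (3.10.9) were used, and the steps were tested on simulated data. The named genes were those of 4 lists, the 10 genes with the most members, the leading genes of the 5 fullest bins, the genes at the 5 widest members and the 5 longest genes. The members and lists were chosen with earlier results of these data known. The alternatives were other promoters, widths, denominators, bins, annotations and motif windows. Some genes and 1 marker set are not reported here.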

Additional observations from a re-analysis of the deposited data

How the results depend on the processing

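For 8 results, 29 alternatives were run, 3 of them chosen after seeing the data. The density of members (27.9 to 39.9 per Mb), its ratio to the other autosomes (1.42 to 1.62) and the share of bins above their median (71.3 to 77.6%) moved by less than 1.5 times under all 21 alternatives run for them, which supports nothing about the density, since it chose the chromosome. The added ones left out the last 30 bins of every autosome (ratio 1.54, share 77.6%) or regions that were mostly repeat (ratio 1.42, the lowest). Joining regions at most 500 bp apart raised the median width from 329 to 350 bp, as joining does by construction. The share in introns was 38.1% with transcripts of protein-coding genes alone and 41.0% with promoters of 5000 bp to both sides. Magi1 had 55 closest members with protein-coding genes alone, where fewer start sites compete, and 30 with joined regions. Searching whole regions, which are mostly longer than 200 bp, gave the SOX motif in 17.3% and the octamer in 3.20%. No paired analysis was possible because the list has no value per library and the results come from no test. The merged list limits every result: weak and strong regions count alike, the list holds no depth, and a region called in a single library cannot be told from one called in all 12.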
